A study of Homo sapiens with 6 samples.

Results

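The probe sets of epiregulin (EREG), of other ligands of the epidermal growth factor (EGF) family, of their ERBB receptors and of 2 regulators were followed in MDA-MB-231 cells, a human triple-negative breast cancer line. The genes listed were EREG, AREG, HBEGF, TGFA and BTC (ligands), EGFR, ERBB2 and ERBB3 (receptors), ADAM17 (a protease that sheds ligands) and ERRFI1 (a receptor inhibitor). A member was every probe set, a group of short oligonucleotides that reads 1 stretch of transcript, which the platform annotation assigns to 1 of these symbols alone. Of 54675 probe sets on the array, 32 were members, and they covered 9 of the 10 genes, among 19775 genes with a probe set of their own. AREG was not analysed here.

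The study compared 3 arrays of cells that stably expressed MYOSIN10 shRNA, a short hairpin RNA against the gene now named MYO10, with 3 arrays of cells that stably expressed scramble shRNA. All cells were of the same line and were grown with serum in an L-15 medium that needs no added CO2. The labels number the arrays 1 to 3 in each group without naming separate cultures or clones, so the spread behind each p-value may be a technical one. The sources used here do not say whether a hairpin line was 1 clone or a pool, or which part of the message the hairpin targets.

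EREG itself was chosen by its rise in signal between these same arrays, and the other members were listed beside it by gene family with results of the comparison known. The fold changes of all members, and the calls and adjusted p-values that the fit across all probe sets returned for them, are therefore given as a description, and for EREG no p is given.

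Ligands of the EGF family are made as membrane-bound precursors, and proteases such as ADAM17 cut them to release the soluble ligand. A ligand that binds EGFR (also named ERBB1) makes the receptor pair with another EGFR or with ERBB2 or ERBB3, which switches on the RAS to ERK and the PI3K to AKT routes. ERBB2 has no known ligand of its own, and ERBB3 has little kinase activity and binds neuregulins. Many triple-negative breast cancers carry abundant EGFR, and ERK activity raises the transcription of several of these ligands and of ERRFI1, which blocks the receptor kinase in turn.

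The upstream sequence of the ligand whose signal rose is shown with those of 2 measured ligands that were not called, so that the promoters can be set side by side. Neither is an unchanged reference: BTC had low and scattered signals, and HBEGF was slightly lower with MYOSIN10 shRNA on its brighter probe sets. TGFA was also measured and is not shown. Each is the 250 bases before the transcript start in RefSeq (build GRCh38.p14), written 5′ to 3′ on the gene's strand. Capitals mark matches to the motifs named after the sequences. EREG lies at chr4:74364895-74365144 on the plus strand, BTC at chr4:74794524-74794773 on the minus strand and HBEGF at chr5:140346604-140346853 on the minus strand.
EREG: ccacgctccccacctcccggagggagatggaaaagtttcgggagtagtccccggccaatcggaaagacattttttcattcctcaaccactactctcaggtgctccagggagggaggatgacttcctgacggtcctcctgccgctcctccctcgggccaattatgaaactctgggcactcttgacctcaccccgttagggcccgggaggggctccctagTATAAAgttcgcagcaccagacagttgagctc
BTC: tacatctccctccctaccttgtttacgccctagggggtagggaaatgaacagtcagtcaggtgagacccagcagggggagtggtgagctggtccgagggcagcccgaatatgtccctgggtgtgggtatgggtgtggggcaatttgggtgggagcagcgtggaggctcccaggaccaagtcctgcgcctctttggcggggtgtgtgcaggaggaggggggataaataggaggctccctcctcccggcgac
HBEGF: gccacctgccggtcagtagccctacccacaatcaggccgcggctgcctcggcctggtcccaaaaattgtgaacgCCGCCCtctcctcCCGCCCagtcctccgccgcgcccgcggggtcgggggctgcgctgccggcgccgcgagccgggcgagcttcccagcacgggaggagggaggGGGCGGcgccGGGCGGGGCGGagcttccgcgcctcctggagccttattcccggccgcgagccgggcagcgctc

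The motifs, searched on both strands, were TGANTCA for AP-1, TGACGTCA for CRE, GGGCGG for SP1 and TATAAA for a TATA box. No motif contains another of these, though matches to the SP1 letters can overlap each other. The EREG sequence held 1 TATAAA, which began 32 bases before the start, and no match to the other 3 motifs. The BTC sequence held none of the 4, and the HBEGF sequence held 5 matches to GGGCGG or its complement. Over the 35116 promoters of this length in the table, 10.7% held TATAAA, 42.6% GGGCGG, 6.57% TGANTCA and 1.65% TGACGTCA. AREG, the gene next to EREG, held TGACGTCA 65 bases, TATAAA 29 bases and the complement of GGGCGG 9 bases before its start. A match is a run of letters only.

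MYO10, the target of the hairpin, was lower with MYOSIN10 shRNA. Its brightest probe set read 11.57, 11.96 and 11.86 on scramble arrays 1 to 3 and 10.70, 11.39 and 10.64 on MYOSIN10 shRNA arrays 1 to 3, as log2 of the signal plus 16, the scale of every level given here. The groups did not overlap, with a log2 fold change of -0.88 ± 0.17 (SE) and an adjusted p of 0.0318 by limma with Benjamini-Hochberg adjustment. The call held in 11 of 18 alternative settings, with adjusted p from 0.000176 to 0.309, and ended without scramble array 1 (0.0835) or 3 (0.17) or MYOSIN10 shRNA array 1 (0.15) or 3 (0.156). None of the 4 dimmer MYO10 probe sets was called. Of these, 2 had groups that did not overlap, at log2 fold changes of -0.74 (limma adjusted p = 0.0514) and -0.58 (0.163), and 2 had groups that overlapped, at -0.84 (0.126) and 0.31 (0.647). In the fit, 33370 probe sets passed a filter on low signal, and 353 of them (1.06%) were called at an adjusted p under 0.05, of which 231 (0.692%) were higher and 122 (0.366%) lower. The groups did not overlap in 18.1% of the probe sets. The mesenchymal and basal markers VIM, CD44, AXL and CAV2 each had a probe set that passed the filter, as did SPARC at 6.54 with scramble shRNA. Of the luminal markers, PGR, CDH1 and FOXA1 had none that passed, whereas ESR1 (2 of 9 probe sets) and GATA3 (3 of 3) had. The brightest probe sets of ESR1 and GATA3 averaged 6.99 and 10.07 with scramble shRNA. Among 7 markers of blood, endothelial, liver and stromal cells with a probe set, 4 had one that passed. With scramble shRNA these averaged 5.64 (CD3E), 6.44 (PECAM1), 6.19 (DCN) and 7.68 (COL1A1) on the brightest probe set. Passing the filter does not by itself show that a gene is expressed.

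Of the 32 member probe sets, 22 passed the filter, and 1 of these, that of EREG, was called, beside 1.06% of all probe sets tested. Nothing is read from this count, since the comparison served to choose EREG. A member could pass the filter through the group in which it was high, so the 22 do not stand for all 32. Among the 21 of other members that passed, 6 had positive and 15 negative log2 fold changes, with a median of -0.062, against -0.002 over all probe sets tested. None of the 21 was called by limma, 1 had an unadjusted p under 0.05 (beside 13.2% of all), and their adjusted p-values ran from 0.338 to 0.977. The groups were apart in 5 of the 21, higher with MYOSIN10 shRNA in 2 and lower in 3, beside 18.1% of all probe sets.

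**Figure D1:**
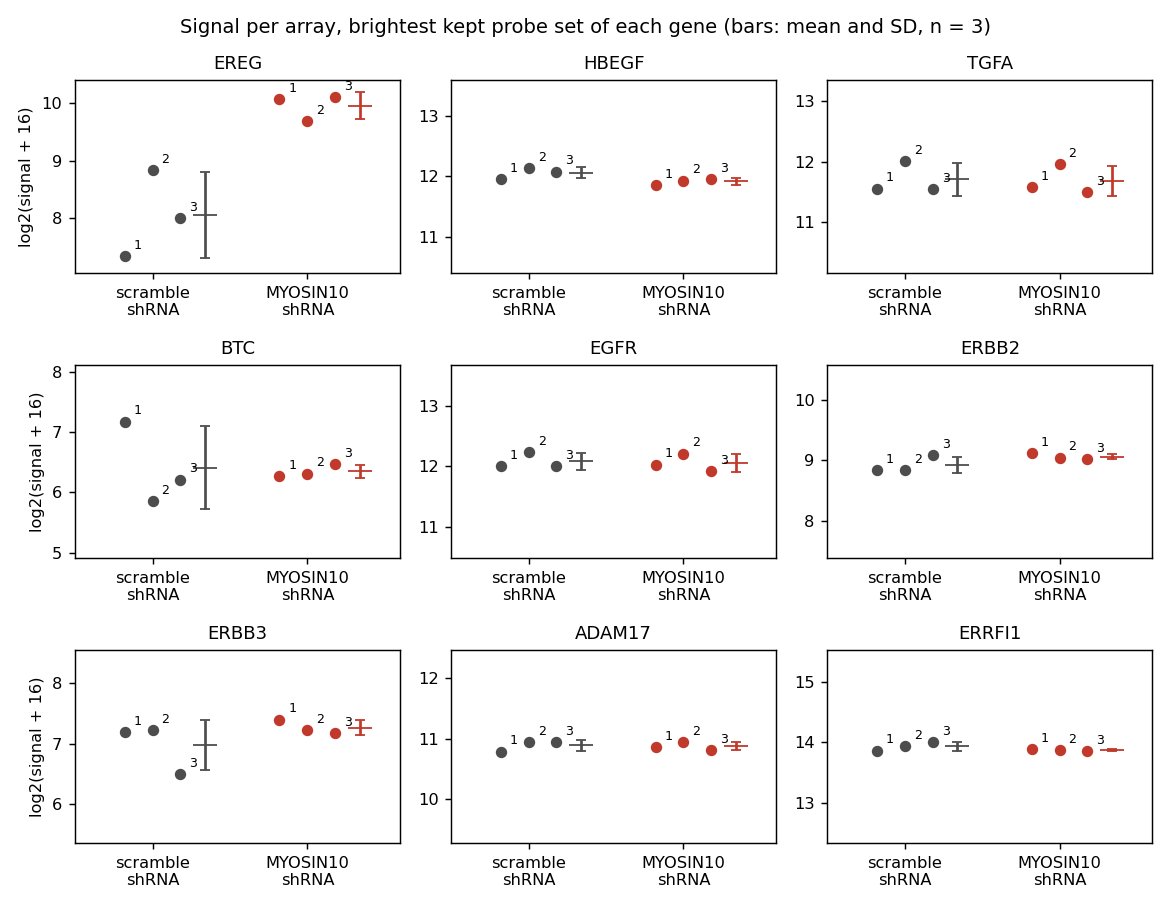
Signal on each array (y axis, log2 of the signal plus 16) of the brightest kept probe set of each of 9 genes, with array numbers beside the points and the mean and SD of each group of 3 at its right. Each panel has its own level but nearly the same height in log2 units. EREG lies between 7.35 and 8.84 on the scramble arrays and between 9.69 and 10.11 on the MYOSIN10 shRNA arrays.

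EREG, a ligand of EGFR and ERBB4, was higher on every MYOSIN10 shRNA array. Its brighter probe set, 205767_at, read 7.35, 8.84 and 8.0 on scramble arrays 1 to 3 and 10.08, 9.69 and 10.11 on MYOSIN10 shRNA arrays 1 to 3. The groups were apart, and scramble array 2 came nearest to the other group while MYOSIN10 shRNA array 2 was the lowest of its own. The group means were 8.06 ± 0.75 and 9.96 ± 0.23 (SD, n = 3 each), a log2 fold change of 1.90 with a 95% interval of 1.29 to 2.51, or 3.74-fold. Since EREG was chosen by this rise, the interval is no test and the size may be overstated. In bulk RNA, more cells that carry a message and more message per cell cannot be told apart.

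The size of the EREG difference varied with the array left out. It was 1.54 on the log2 scale without scramble array 1, 2.29 without scramble array 2, and between 1.83 and 2.04 when any other single array was left out. Without both arrays numbered 2 it was 2.42. The other EREG probe set, 1569583_at, did not pass the filter. It read 4.46, 4.68 and 5.40 with scramble shRNA and 5.05, 4.47 and 4.34 with MYOSIN10 shRNA, close to the floor of 4.09 that the added 16 sets, so it gives no second reading of the rise.

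HBEGF, heparin-binding EGF-like growth factor, had slightly lower values in the MYOSIN10 shRNA group on both of its brighter probe sets, and neither was called. Probe set 203821_at read 11.96, 12.14 and 12.08 with scramble shRNA and 11.86, 11.93 and 11.96 with MYOSIN10 shRNA. By these values scramble array 1 and MYOSIN10 shRNA array 3 nearly met, and the log2 fold change was -0.14 (95% interval -0.32 to 0.031). Probe set 38037_at read 10.96, 11.04 and 11.05 against 10.76, 10.89 and 10.79, so that all 3 scramble arrays lay above all 3 others, with a log2 fold change of -0.20 (-0.39 to -0.015). Its limma adjusted p of 0.338 was the lowest among the member probe sets besides that of EREG. Another, dim probe set, 244857_at, overlapped between groups at 6.24 ± 0.70 and 5.32 ± 0.75 (SD, n = 3 each; log2 fold change -0.91, 95% interval -1.92 to 0.10), and 222076_at did not pass the filter.

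TGFA, transforming growth factor alpha, showed no difference between the groups beyond the spread of the arrays. Its brightest probe set, 205016_at, read 11.56, 12.02 and 11.55 with scramble shRNA and 11.58, 11.96 and 11.50 with MYOSIN10 shRNA. Array 2 of each group stood above the other 4 arrays, which lay within 11.50 to 11.58. The log2 fold change was -0.032, with a 95% interval of -0.34 to 0.28. The 2 dimmer probe sets, 205015_s_at and 211258_s_at, gave -0.16 (-0.62 to 0.30) and -0.089 (-0.58 to 0.41), and their groups overlapped.

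BTC, betacellulin, a ligand of EGFR and ERBB4 encoded close to EREG, had low and scattered signals. Its kept probe set, 241412_at, read 7.17, 5.85 and 6.21 with scramble shRNA and 6.27, 6.31 and 6.47 with MYOSIN10 shRNA. The scramble arrays spanned the other group on both sides. The log2 fold change of -0.06 carried a 95% interval of -0.78 to 0.66, which leaves room for a change of more than 1.5-fold in either direction. Its other probe set, 207326_at, did not pass the filter.

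**Figure D2:**
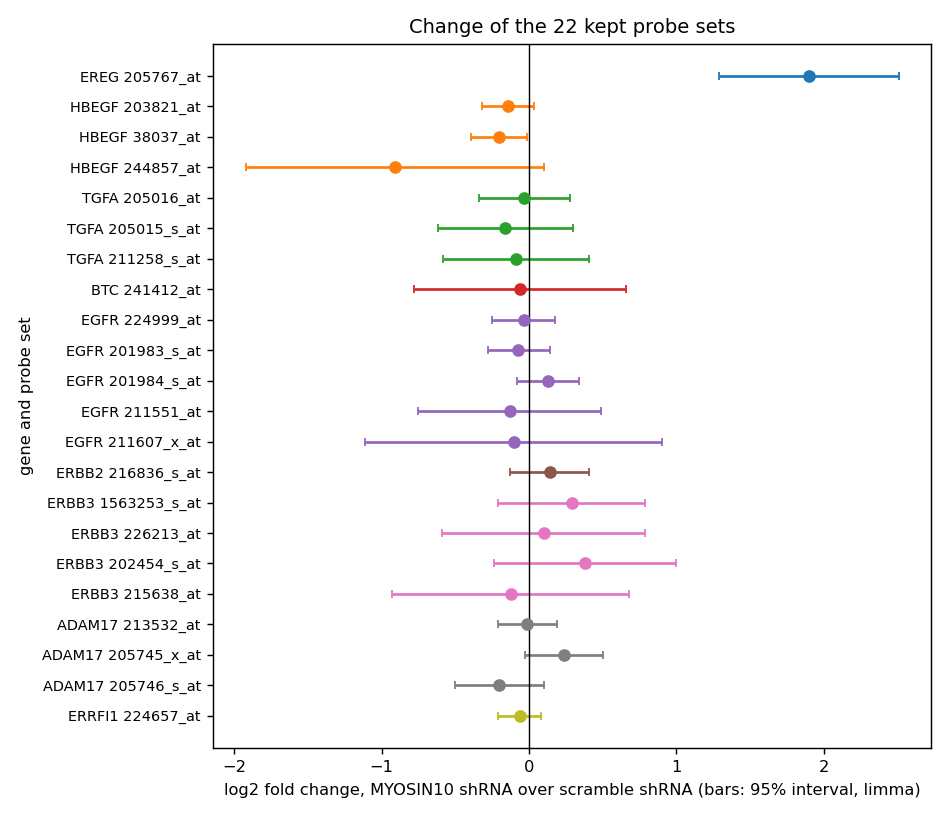
Log2 fold change of MYOSIN10 shRNA over scramble shRNA (x axis) with its 95% interval from limma for the 22 member probe sets that passed the filter, 1 row each and 1 colour per gene. The interval of EREG runs from 1.29 to 2.51, and it is a description and no test, since EREG was chosen by its rise on these arrays. The intervals of the other rows span 0 except for 38037_at of HBEGF, from -0.39 to -0.015.

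EGFR, the receptor for all 5 ligands, did not differ between the groups beyond the spread on any of its 5 kept probe sets. The brightest, 224999_at, read 12.01, 12.24 and 12.00 with scramble shRNA and 12.03, 12.21 and 11.92 with MYOSIN10 shRNA. As for TGFA, array 2 was the highest of each group. The log2 fold change was -0.033 with a 95% interval of -0.25 to 0.18. The next 2 probe sets, 201983_s_at and 201984_s_at, gave -0.073 (-0.28 to 0.14) and 0.13 (-0.083 to 0.34). The dimmer 211551_at and 211607_x_at gave -0.13 (-0.75 to 0.49) and -0.10 (-1.11 to 0.90). The remaining 4 of the 9 EGFR probe sets, 1565484_x_at, 1565483_at, 210984_x_at and 211550_at, did not pass the filter.

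ERBB2, the coreceptor without a known ligand, had 1 kept probe set of 3, 216836_s_at, while 210930_s_at and 234354_x_at did not pass the filter. The kept one read 8.84, 8.84 and 9.08 with scramble shRNA and 9.11, 9.04 and 9.02 with MYOSIN10 shRNA. Scramble array 3 lay within the other group, while scramble arrays 1 and 2 lay below it. The log2 fold change was 0.14 with a 95% interval of -0.13 to 0.41 (limma adjusted p = 0.699).

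ERBB3, a neuregulin receptor, had low signals on its 4 kept probe sets of 5, and their log2 fold changes ran from -0.12 to 0.38. The brightest, 1563253_s_at, read 7.19, 7.23 and 6.50 with scramble shRNA and 7.40, 7.23 and 7.17 with MYOSIN10 shRNA, a difference of 0.29 (95% interval -0.21 to 0.79) that came mainly from the low scramble array 3. Without that array the difference was 0.055. Probe set 202454_s_at read 5.78, 6.07 and 5.97 against 6.25, 6.57 and 6.14. Here the groups were apart, but at this low signal the interval of its log2 fold change of 0.38 ran from -0.24 to 1.00 (limma adjusted p = 0.635). Probe sets 226213_at and 215638_at gave 0.10 and -0.12 with overlapping groups, and 1563252_at did not pass the filter.

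ADAM17, the main sheddase of EREG, HBEGF and TGFA precursors, gave no common direction over its 3 probe sets. The brightest, 213532_at, read 10.79, 10.94 and 10.94 with scramble shRNA and 10.86, 10.95 and 10.82 with MYOSIN10 shRNA, a log2 fold change of -0.011 (95% interval -0.21 to 0.19). The other 2 pointed opposite ways. Probe set 205745_x_at, whose suffix marks probes that may also match other transcripts, read 9.77, 9.63 and 9.36 against 9.80, 9.87 and 9.80, with all MYOSIN10 shRNA arrays above all scramble arrays (log2 fold change 0.24, 95% interval -0.025 to 0.50). Probe set 205746_s_at read 8.39, 8.44 and 8.21 against 8.15 on all 3 MYOSIN10 shRNA arrays, the reverse order (log2 fold change -0.20, 95% interval -0.50 to 0.10). Neither was called (limma adjusted p = 0.434 and 0.597), and whether the 2 probe sets read different transcript forms was not tested.

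ERRFI1, an inhibitor of the EGFR kinase that ERK activity induces, was even across the arrays. Its 1 probe set read 13.86, 13.93 and 14.00 with scramble shRNA and 13.88, 13.87 and 13.85 with MYOSIN10 shRNA. The MYOSIN10 shRNA arrays lay at the low end of the scramble range, and the 95% interval of the log2 fold change of -0.062 ran from -0.21 to 0.081. Over the 10 member probe sets that did not pass the filter and were not tested, the differences between the group means ran from -0.51 to 0.59 on the log2 scale.

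None of the measured genes beside EREG on chromosome 4 was called higher. Of the 16 protein-coding genes nearest to EREG in RefSeq order, 8 on each side, 12 had a kept probe set. By limma, 0 of these were called higher and 2 lower, beside 1.05% and 0.339% of all 14174 genes represented by their brightest kept probe set. The 2 called lower lay on the side of the CXC chemokine genes. CXCL3, a neutrophil-attracting chemokine, read 11.87, 11.52 and 12.10 with scramble shRNA and 11.02, 10.72 and 11.00 with MYOSIN10 shRNA (log2 fold change -0.92 ± 0.14 SE, limma adjusted p = 0.00764). MTHFD2L, a mitochondrial folate enzyme, read 11.44, 11.01 and 11.25 against 10.70, 10.40 and 10.60 (-0.66 ± 0.12 SE, limma adjusted p = 0.0221). The CXCL3 call held in 15 of 18 settings. It was lost on leaving out scramble array 1 or 3 (limma adjusted p = 0.0683 and 0.0564) and without the variance trend (0.224). That of MTHFD2L held in 11 of 18. It ended without any single array except scramble array 2, with limma adjusted p from 0.0623 to 0.136, with no filter (0.0637) and without the variance trend (0.26). The other 5 kept probe sets of MTHFD2L gave -1.10, -0.87 and -1.36, with no overlap between the groups, and 0.13 and -0.12, with overlap. In both genes all scramble arrays lay above all MYOSIN10 shRNA arrays, the opposite order to EREG. The other measured genes on the chemokine side, CXCL1, PF4 and CXCL2, stood at -0.30, -0.57 and -0.15 and were not called. On the other side of EREG, BTC, PARM1, RCHY1, THAP6, ODAPH, CDKL2 and G3BP2 had log2 fold changes from -0.48 to 0.40 with none called. Of the 12 neighbours, 3 had positive log2 fold changes (beside 51.8% of all genes). By limma, 4 had an unadjusted p under 0.05 (beside 15.1% of all genes). EPGN and AREG, the direct neighbours of EREG, were not analysed here.

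**Figure D3:**
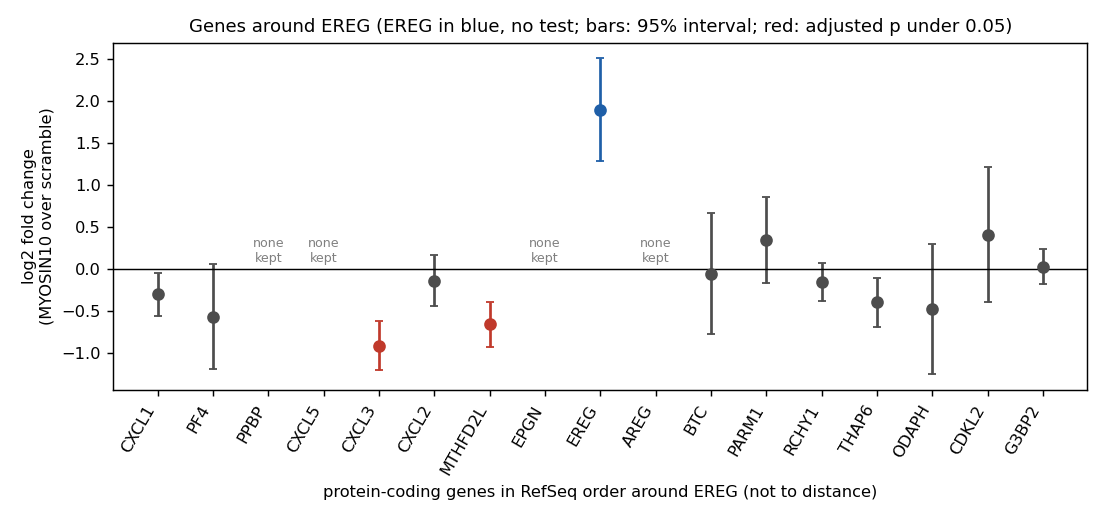
Log2 fold change (y axis) with its 95% interval for EREG and the 8 protein-coding genes on each side in RefSeq order (x axis, evenly spaced), with grey text where no probe set was kept. EREG, chosen by its rise and shown without a test, stands at 1.90. CXCL3 at -0.92 and MTHFD2L at -0.66 were called, and no other neighbour was.

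Over the 6 arrays, none of the 6 genes whose pattern was most like that of EREG was an EGF ligand. AREG and EPGN, the direct neighbours of EREG, were not analysed here and so were not ranked. Few ligands were among the 14173 genes compared, so their absence from the top 6 is only a description. The 6 highest Pearson correlations among 14173 genes, from 0.993 to 0.997, were those of WDR12 (a ribosome assembly factor), ZNF274 (a zinc finger repressor), TNS2-AS1, CIBAR1, IRAK2 (a kinase of Toll-like receptor signalling) and NUMBL (a relative of the Notch inhibitor NUMB). The lowest, from -0.997 to -0.992, were those of IER3IP1, SCML1 and SLC25A43. The size of the difference varied among these genes: WDR12 differed by 0.17 and IRAK2 by 0.24 on the log2 scale between the groups, and TNS2-AS1, at a low signal, by 1.29. None of the 6 highest was called, with limma adjusted p from 0.0749 (NUMBL) to 0.469 (CIBAR1). Of the lowest, SCML1 was called (-0.50, limma adjusted p = 0.0381) and the others were not. All were picked by likeness on these same arrays, so these values are a description. Such correlations describe 6 arrays that fall into 2 groups and share their scaling, and 559 genes had a correlation above 0.9. For the brightest probe sets of the other members they ran from -0.473 (HBEGF) to 0.564 (ERBB2), with 0.0271 for EGFR and 0.115 for TGFA.

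Among other genes of the pathway, listed by role from general knowledge, HRAS, LRIG1 and EGR1 rose. The lists were chosen with earlier results of these data known, so their counts and shares are a description. Of 100 genes on 5 lists, 85 had a kept probe set. By limma over all probe sets, 3 of the 85 were called higher, 0 lower and 82 were not called. Beside this, 1.39% of all genes were called, 1.05% higher and 0.339% lower. The 3 made up 3.53% of the 85. Positive log2 fold changes were held by 50 of the 85 (58.8%, beside 51.8% of all genes), and an unadjusted p under 0.05 by 16 (18.8%, beside 15.1% of all genes).

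In the list of other ligands and ERBB4, 2 of 7 genes were measured and neither was called. NRG1, a neuregulin that binds ERBB3 and ERBB4, stood at 0.084 (limma adjusted p = 0.838), and NRG2, at a low signal, at -0.37 (0.832). Among 14 shedding genes, 0 were called and 2 had an unadjusted p under 0.05, with a median log2 fold change of -0.08. The metalloprotease ADAM8 stood at -0.37 (limma adjusted p = 0.344) and RHBDF1, an iRhom that carries ADAM17 to the cell surface, at -0.32 (0.367).

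In the list of adaptors and kinases, 1 of 22 measured genes rose and 0 fell. HRAS, a RAS GTPase that relays receptor signals to the RAF kinases, read 10.62, 10.94 and 10.62 with scramble shRNA and 11.45, 11.55 and 11.42 with MYOSIN10 shRNA. The groups were well apart, with a log2 fold change of 0.75 ± 0.10 (SE, limma adjusted p = 0.00598) on the 1 kept probe set of the gene. That call ended without scramble array 1 (log2 fold change 0.69, adjusted p = 0.0533) and without the variance trend (0.185) and held in the other 16 of 18 settings. The list's median was 0.082, against 0.0093 over all genes.

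In the list of receptor brakes and trafficking, 1 of 25 measured genes rose and 0 fell. LRIG1, a membrane protein that promotes the breakdown of ERBB receptors, read 10.23, 10.06 and 10.24 with scramble shRNA and 10.64, 10.60 and 10.64 with MYOSIN10 shRNA. The groups did not overlap, and the log2 fold change was 0.45 ± 0.10 (SE, limma adjusted p = 0.0479). The call was at the threshold: it held in 8 of 18 settings, with adjusted p from 0.0232 to 0.26, and ended without scramble array 1 (0.154) or 3 (0.142) or MYOSIN10 shRNA array 1 (0.195), 2 (0.0872) or 3 (0.194). The list's median was -0.06.

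In the list of genes that ERK activity is known to induce, 1 of 22 rose and 0 fell, and 19 had positive values (86.4%, beside 51.8% of all genes) with a median of 0.17 (beside 0.0093). EGR1, an immediate early transcription factor, read 10.82, 10.18 and 10.67 with scramble shRNA and 12.21, 11.29 and 12.14 with MYOSIN10 shRNA. Array 2 was the lowest of each group, and the groups were apart (log2 fold change 1.33 ± 0.22 SE, limma adjusted p = 0.0128). The call held in 11 of 18 settings. Leaving out 1 scramble array ended it for arrays 1 and 3 (limma adjusted p = 0.0539 and 0.0743), as did leaving out MYOSIN10 shRNA array 1 (0.0786) or 3 (0.0836). It also ended with no filter (0.0616), with robust eBayes (0.0777) and without the variance trend (0.254). In this list 7 genes had an unadjusted p under 0.05 (31.8%, beside 15.1% of all genes). DUSP6, a phosphatase that removes the activating phosphates of ERK, was among those not called, at 0.32 (limma adjusted p = 0.137). It was chosen after its values were seen. The negative values were those of SPRED3 (-0.43, limma adjusted p = 0.437), DUSP5 (-0.16) and MYC (-0.06), with none called. In SPRED3 all MYOSIN10 shRNA arrays lay below all scramble arrays.

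**Figure D4:**
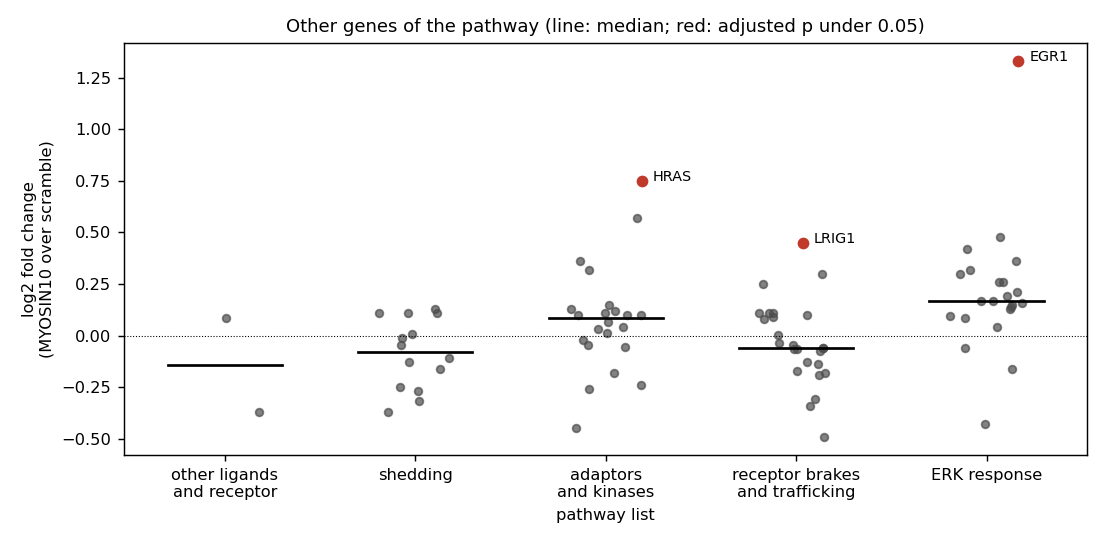
Log2 fold change (y axis) of each measured gene of the 5 pathway lists (x axis), 1 point per gene, with the list's median as a line and called genes in red. HRAS (0.75), LRIG1 (0.45) and EGR1 (1.33) are the called genes, and the median of the ERK response list is 0.17.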

How the data were processed

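Total RNA was labelled with a 3' in vitro transcription kit and read on 6 1-colour arrays, per the labels' protocols. The deposited values are log2 signals that the authors made with MAS5, per the submitters' processing notes, and each array had been scaled to a common trimmed mean, near 500.1 before log2. The sources used here do not give the version of MAS5, its target or its limits. A change in total RNA per cell would not show, and with 3 arrays per group their number sets the precision.

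Each value was raised from log2, 16 added and log2 taken anew, which understates changes of low signals. Probe sets that reached their array's 40th percentile on at least 3 arrays were kept and fitted together with limma 3.58.1 in R 4.3.3 (eBayes with a variance trend, two-sided, group as the sole term). P-values were adjusted by Benjamini-Hochberg over all 33370. A gene outside the members is represented by the brightest of its kept probe sets. Symbols came from the platform annotation (41097 probe sets with 1 symbol, 1801 with several, 11777 with none) and were updated through the RefSeq table of GRCh38.p14 for 41043. The promoter table held 9 of the 10 members. The steps were run on simulated data whose noise was independent between arrays, with an SD set by the mean signal alone. Real arrays can differ from this, so the run checks the steps and gives no support to the calls made here.

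Named were all member probe sets, MYO10, called genes of each list (or the 2 with the smallest p), the genes with the 6 highest and 3 lowest correlations with EREG and the genes beside it. DUSP6 and the ERK response genes with negative values were named besides, after their values were seen. Members, lists and alternatives were chosen with earlier results of these data known. Alternatives were other pseudocounts, filters, scalings, variance models, array weights, 1 probe set per gene, the replicate number as a block and arrays left out. Same-numbered arrays (1, 2 and 3) deviated together with correlations of 0.0328, 0.118 and 0.0132, and differently numbered arrays with correlations from -0.0751 to 0.0486. The labels name no pairs, so the main fit did not take the numbers as pairs. The value of 0.118 for the arrays numbered 2 was the highest of all. On 18 of the 22 kept member probe sets, the arrays numbered 2 averaged higher than the other arrays. The share over all probe sets was not computed. Whether the 2 arrays numbered 2 share a technical effect was not tested. Python 3.11.15 with matplotlib 3.10.9 drew the figures. Some genes are not analysed here.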

Additional observations from a re-analysis of the deposited data

How the results depend on the processing

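The log2 fold change of EREG ran from 1.54 to 2.42 over 18 alternatives, and from 1.54 to 2.29 when single arrays were left out. Leaving out arrays could not turn its sign, since the groups do not overlap, so its direction is no sign of stability. The number of member probe sets called was 1, or 0 without the variance trend, and ran from 0 to 1 when single arrays were left out. That 1 was EREG, chosen by this comparison, so the count is a description. In no alternative was a member other than EREG called, with lowest limma adjusted p-values from 0.168 (without both arrays numbered 2) to 0.619. When single arrays were left out, the log2 fold change ran from -0.34 to 0.32 for BTC 241412_at, from -0.48 to 0.29 for EGFR 211607_x_at and from -0.17 to 0.12 for TGFA 205016_at, so the sign of these, among others, depended on the array left out. The log2 fold change of MYO10 was -0.88 with limma adjusted p = 0.106 with no filter, 0.309 without the variance trend and 0.0528 with robust eBayes, and ran from -1.12 to -0.75 when single arrays were left out. The number of pathway genes called, 3, was 1 with no filter, 0 without the variance trend, 5 with array weights, 7 without both arrays numbered 2, and from 0 to 7 when single arrays were left out, the 7 being without scramble array 2. The cause of these shifts was not tested. With the replicate block, 5 pathway genes were called, 4 higher and 1 lower, of which 3 were among the 3 of the fit without it, 1 member probe set was called, and the block raised the calls over all probe sets from 353 to 891. Without the variance trend limma called 0 of all probe sets, against 353 with it, and 3665 had an unadjusted p under 0.05 without it, against 4391 with it. Without scramble array 2, 1468 were called. Signals near the floor of 4.09 limit what the 10 member probe sets that did not pass the filter can show.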
